A study of Mus musculus with 42 samples.

Results

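The genes described here are 7 members of the Nodal and TGF-β pathway: Nodal, Tdgf1, Acvr2b, Lefty1, Lefty2, Smad7 and Skil. Their probes were taken by symbol from the annotation of both array types, whatever their values. The genes themselves were chosen with earlier results of these data known. On the Mouse WG-6 array they hold 10 of 45281 probes and are 7 of 19057 genes with a symbol. On the MouseRef-8 array they hold 8 of 25697 probes and are 6 of 16593 genes, since Smad7 was matched on the first type only.

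Nodal is a secreted ligand of the TGF-β superfamily, which binds type I and type II activin receptors together with Cripto, the co-receptor that Tdgf1 encodes. The activated type I receptor phosphorylates Smad2 and Smad3, which enter the nucleus with Smad4 and act there with partners such as Foxh1 and Eomes. In the mouse, Nodal itself, Lefty1, Lefty2, Smad7 and Skil are transcribed in answer to the signal, and the products of the Lefty genes, Smad7 and Skil hold it back. Around implantation the pathway is known for maintaining and patterning the epiblast.

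SB431542 (SB) blocks the kinase of the type I receptors for Nodal, activin and TGF-β, and PD0325901 (PD) blocks MEK. R2i holds both, 1 µM PD and 10 µM SB, with 1000 U/mL LIF. In the first run, 18 arrays carried BALB/c samples, with 3 arrays each of ICMs taken by immunosurgery from E3.5 blastocysts, of outgrowths that grew from whole blastocysts (BOs) in R2i and were named by their day, every second day from BO-3 to BO-9, and of ESCs in R2i. In the second run, 22 arrays carried samples of hybrid embryos, 2 arrays per group. For this run and other experiments together, the study lists B6 x C3H F1 hybrids and crosses of such F1 mice with CD1 or OG2 mice. OG2 mice carry a GFP transgene under control of Pou5f1. Which of these gave the arrays is not stated. The groups were ICMs, and ICM outgrowths (IOs) in R2i, also named by day (IO-0.5 and IO-1, then IO-2, then IO-3 and IO-5). Further groups were IOs in SB medium on days 1 and 3 (SBIO-1 and SBIO-3), and ESCs in R2i at passages 2, 4 and 15 (P2, P4 and P15). SB medium holds 10 µM SB and LIF but no PD. The other 2 arrays of that run carried BALB/c ICMs. An array held RNA of a pool of 20 to 30 ICMs or BOs in the first run and of 30 to 40 ICMs or IOs in the second, amplified before hybridisation.

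Every plated group grew with SB, and no group was plated without it. A change between the ICMs and any outgrowth can therefore not be told apart from time, plating and the other components of the medium, and the comparison of IOs with SBIOs tests PD in the presence of SB. The samples were bulk RNA, so fewer cells of a type and less RNA per cell cannot be told apart. P values measure the spread between arrays within groups, pooled over all groups of a run and drawn by limma toward a value shared by all genes. They do not measure the spread of the compared groups alone. For ICMs and outgrowths the arrays of a group came from separate pools, and the number of arrays limits the precision.

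Values are log2 levels of background-corrected and quantile normalized intensities, normalized within a run and therefore not compared between runs. A probe counted as detected where its detection p was under 0.05. The lowest detected probe of an array lay between 4.62 and 4.91 in the first run and between 4.63 and 5.32 in the second, except on the hybrid ICM arrays, where it lay at 6.41 and 7.41. Their share of detected probes was 24.2% and 18.0%, where the rest of the second run had 33% to 45.6% and the first run 28.9% to 35.4%. BO-3 replicate 1 had 26.3%. That array is not among those the study shows and was left out of the fits. Calls needed 2-fold or more in limma together with an adjusted p no higher than 0.05 in the first run and 0.01 in the second. For a gene that none of a group's arrays detected, the text gives only a bound on the fold, set by the dimmest detected probes of those arrays. The summed level of 7 epiblast markers was 8895 to 9112 in BALB/c ICMs and 21041 to 24808 in ESCs. That of 8 such markers was 10174 to 10842 in hybrid ICMs, where Sox2 and Fgf4 were not detected on either array.

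The letters before the start sites of Nodal and Tdgf1 are shown because each had the largest change among the members tested in a comparison. For Nodal this was ICM to ESC in BALB/c samples, with the brighter of its probes. For Tdgf1 it was the media on day 3 in hybrid samples. They are the 250 bases upstream of the start on GRCm38.p6, from RefSeq, at chr10:61417722-61417971 on the plus strand for Nodal and chr9:110946159-110946408 on the minus strand for Tdgf1. Of the 7 genes, 3 (with Acvr2b) were matched in the promoter table. The Smad-binding motif CAGAC and the Foxh1 motif TGTGNATT were searched for on both strands, and matches are in capitals.
Nodal: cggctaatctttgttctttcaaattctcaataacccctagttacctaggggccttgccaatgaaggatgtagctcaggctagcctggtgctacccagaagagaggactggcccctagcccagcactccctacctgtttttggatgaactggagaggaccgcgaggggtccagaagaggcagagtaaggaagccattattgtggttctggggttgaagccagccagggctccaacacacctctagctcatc
Tdgf1: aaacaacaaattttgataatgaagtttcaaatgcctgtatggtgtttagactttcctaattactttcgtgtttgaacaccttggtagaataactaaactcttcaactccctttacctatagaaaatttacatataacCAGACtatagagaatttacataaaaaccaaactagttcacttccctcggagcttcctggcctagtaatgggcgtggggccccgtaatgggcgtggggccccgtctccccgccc
Neither motif was in the Nodal window. In that of Tdgf1 the Smad motif stood once, 113 bases before the start, and the Foxh1 motif was not found. The window of Acvr2b, not printed, also held the Smad motif once, 233 bases before the start, and no Foxh1 motif. Of 32851 mouse promoters of this length, 42.2% held the Smad motif and 3.18% the Foxh1 motif, and a match describes letters, not binding.

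Among BALB/c samples Nodal, the ligand, was lowest in the ICMs and higher at each later day of the outgrowths. Its level was 7.13, 5.41 and 6.42 on the ICM arrays, 8.68 and 8.85 in BO-3, 9.48, 9.12 and 9.84 in BO-5, 9.89, 10.16 and 10.07 in BO-7, 10.40, 10.44 and 10.62 in BO-9 and 10.71, 10.13 and 10.25 in ESCs. ICM, BO-3, BO-5 and BO-7 followed each other without overlap, BO-9 lay above BO-7, and the ESC arrays overlapped with both BO-7 and BO-9. Nodal rose 5.45-fold from ICM to BO-3 (log2 2.45, SE 0.34, adjusted p = 1.6e-05 from limma) and a further 3.29-fold from BO-3 to BO-9 (log2 1.72, SE 0.34, adjusted p = 0.00237). ESCs stood 16.5-fold above the ICMs (log2 4.04, SE 0.30, adjusted p = 5.33e-09). Between ESCs and BO-9 the change was -0.12 on the log2 scale, with a 95% interval from -0.76 to 0.52 (adjusted p = 0.796). BO-3 replicate 1 read 7.51, between the ICMs and the other BO-3 arrays, and the rise to BO-3 was 2.03 with it.

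These values came from probe ILMN_2776165. The other Nodal probe, ILMN_3160797, stayed between 4.32 and 5.03 on these 17 arrays and was detected on 6 of them, 3 ESC, 2 BO-9 and 1 BO-7. Its change from ICM to BO-3 was -0.19 (SE 0.15, adjusted p = 0.353), so the probes disagreed, although both carry the same RefSeq transcript. Averaging both moved the change from BO-3 to BO-9 below 2-fold (log2 0.99).

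The dim probe is the only one for Nodal on the second array type, and it was dim in the hybrid samples too. It was detected on 6 of 22 hybrid arrays: IO-1 replicate 1 (5.55), IO-3 replicate 2 (4.91), IO-5 replicate 1 (4.70), P2 replicate 2 (5.28) and both P4 arrays (4.81 and 4.86). On the hybrid ICM arrays it read 5.21 and 7.15 without being detected, below the dimmest detected probe of each array. SBIO-1 fell below the ICMs in the fit (log2 -1.77, SE 0.45, adjusted p = 0.00424), but neither group was detected, so no fold is given. The call was lost without ICM replicate 2 (log2 -0.82, adjusted p = 0.0737), SBIO-1 replicate 1 (-1.71, adjusted p = 0.0283) or SBIO-1 replicate 2 (-1.81, adjusted p = 0.0216).

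**Figure D1:**
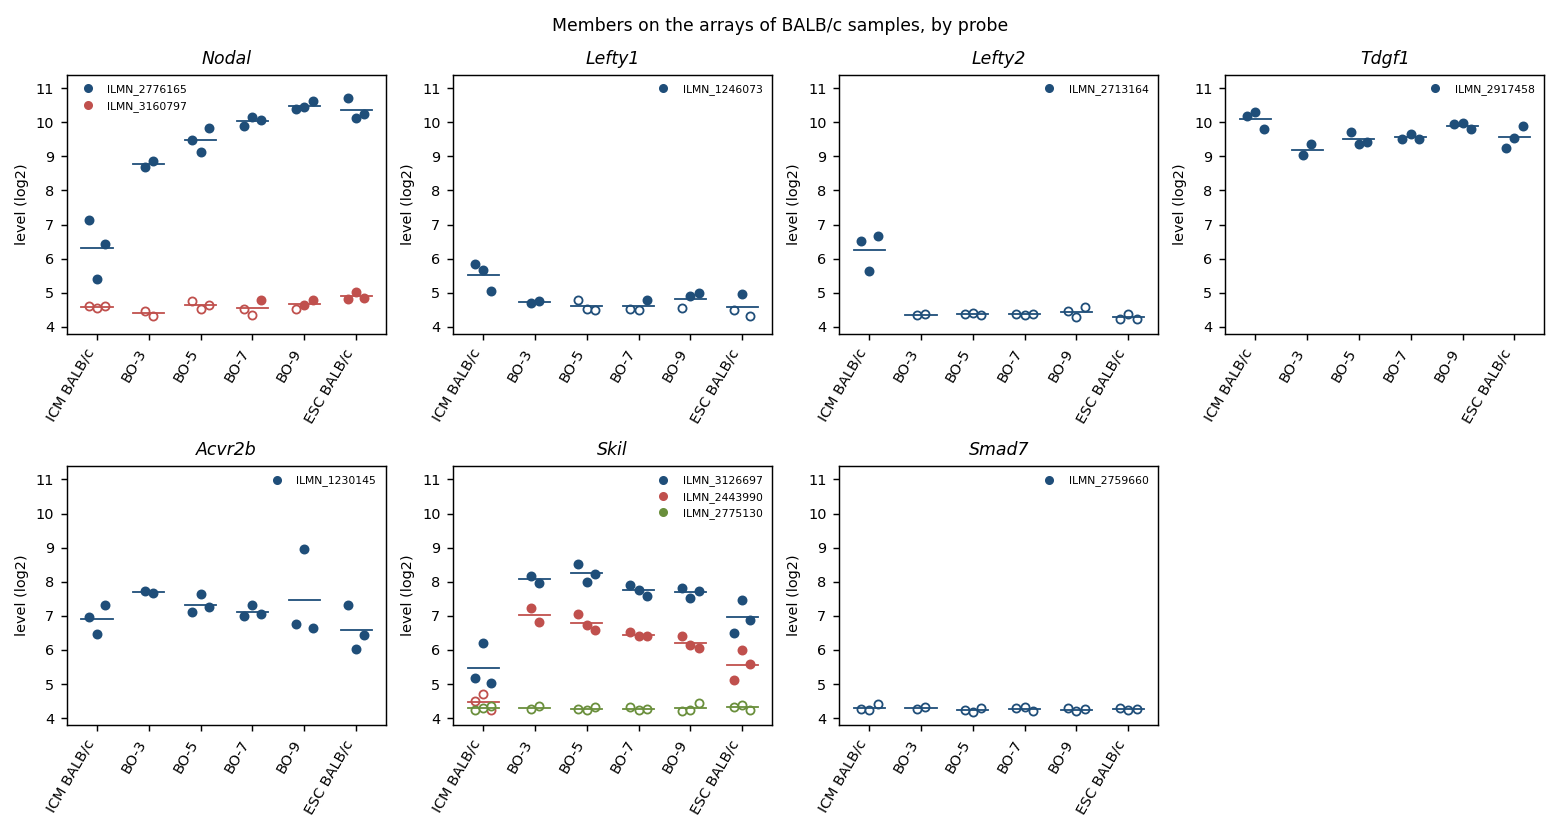
Log2 level of each probe of the 7 genes (y axis) on the 17 BALB/c arrays of the fit, by group (x axis); 1 point per array, filled where detected and open where not, with a bar at the group mean. The bright Nodal probe climbs from 5.41 to 7.13 in ICMs to above 10 in BO-9 and ESCs, Skil rises after the ICM, Lefty2 is filled in ICMs only, and Smad7 is open throughout.

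Tdgf1, the co-receptor, was high in every BALB/c group and moved by less than 2-fold. It read 10.18, 10.31 and 9.80 in ICMs, 9.03 and 9.36 in BO-3, 9.95, 9.97 and 9.79 in BO-9 and 9.26, 9.54 and 9.88 in ESCs, and between 9.37 and 9.72 in BO-5 and BO-7. BO-3 lay below all ICM arrays, by 0.90 on the log2 scale (SE 0.20, adjusted p = 0.0013), and BO-9 was 0.71 above BO-3 (SE 0.20, adjusted p = 0.0252). Without ICM replicate 3 or BO-3 replicate 3 the first change passed 2-fold and was called (log2 -1.05 and -1.07). BO-3 replicate 1 read 10.88, above all of these, and with it the first change was -0.32 (adjusted p = 0.532) and the second 0.12 (adjusted p = 0.861).

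In hybrid samples Tdgf1 was lower by day 1 than in the ICMs in both media. It stayed at 8.75 or above in R2i and fell further in SB medium between days 1 and 3. Its level was 10.63 and 10.82 in ICMs, 9.99 and 10.37 in IO-0.5, 8.84 and 9.29 in IO-1, 8.96 and 9.61 in IO-2, 9.42 and 9.98 in IO-3 and 8.75 and 9.75 in IO-5. In SB medium it was 8.72 and 8.54 on day 1 and 5.12 and 6.93 on day 3, the first of the day 3 arrays not detected. The ESCs read 9.71 and 9.52 at P2, 9.30 and 8.93 at P4 and 10.00 and 9.81 at P15. Both SBIO-3 arrays lay below all other hybrid arrays, and SBIO-1 was the next lowest group, again without overlap. ICMs were the highest group, and the groups from IO-0.5 down to IO-1 each overlapped with the next in the order of means.

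Tdgf1 fell 6.07-fold from SBIO-1 to SBIO-3 (log2 -2.60, SE 0.46, adjusted p = 0.00134), and IO-3 exceeded SBIO-3 by 3.67 on the log2 scale (95% interval 2.69 to 4.65, adjusted p = 5.69e-05). On day 1 the media were 0.44 apart, with an interval from -0.55 to 1.42 (adjusted p = 0.682). The change between the media on day 3 less that on day 1 was 3.24 (SE 0.65, adjusted p = 0.00289). The fall from SBIO-1 to SBIO-3 was no longer called without SBIO-1 replicate 1 (log2 -2.50, adjusted p = 0.0174), SBIO-1 replicate 2 (-2.69, adjusted p = 0.012) or SBIO-3 replicate 1 (-1.70, adjusted p = 0.0124). Without SBIO-3 replicate 2 it was -3.52 (adjusted p = 5.94e-05). The difference between days was lost without IO-1 replicate 1 (3.03, adjusted p = 0.0173), IO-3 replicate 2 (2.95, adjusted p = 0.0177), SBIO-1 replicate 1 (3.14, adjusted p = 0.014) or SBIO-1 replicate 2 (3.33, adjusted p = 0.0106). It was 2.34 without SBIO-3 replicate 1 and 4.16 without SBIO-3 replicate 2, and the change between the media on day 3 was 2.77 and 4.60 without these.

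In R2i, too, Tdgf1 was lower in IO-1 than in the ICMs, at a mean of 9.065 against 10.727, a change that was not tested. From ICM to SBIO-1 Tdgf1 fell 4.28-fold (log2 -2.10, SE 0.46, adjusted p = 0.00148). That call was lost without ICM replicate 2 (log2 -2.00, adjusted p = 0.0116) or SBIO-1 replicate 2 (-2.01, adjusted p = 0.0142).

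A second Tdgf1 probe, ILMN_2595311, was dimmer and moved the same way. It read 7.72 and 8.29 in IO-3 and 4.34 and 5.44 in SBIO-3, the former of these not detected. In a fit of all probes it gave 3.11 between the media on day 3 (SE 0.38, adjusted p = 5.19e-05), -2.09 from SBIO-1 to SBIO-3 (adjusted p = 0.00186) and 3.20 for the difference between days (adjusted p = 0.00104). On day 1 it gave -0.08 (adjusted p = 0.949).

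Acvr2b, a type II receptor, was detected on all 17 BALB/c arrays and on 20 of 22 hybrid arrays, and no comparison called it. BALB/c levels lay between 6.03 and 7.74 except in BO-9 replicate 2, at 8.96, and neighbours in the order of group means all overlapped. Among hybrid samples it was highest in SBIO-3, at 8.09 and 7.88, and lowest in IO-0.5, at 5.37 and 5.16 (the latter not detected), with P15 next at 5.78 and 5.57. The 2 ICM arrays disagreed, at 7.52 and 4.85 (the latter not detected). Its change from IO-0.5 to IO-5 was 1.66 (SE 0.59, adjusted p = 0.0504), and that of IO-3 against SBIO-3 was -0.77 (95% interval -2.03 to 0.48, adjusted p = 0.377). Without both hybrid ICM arrays in the fit, a choice made after the values were seen, the change to IO-5 was called (log2 1.71, adjusted p = 0.00142).

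**Figure D2:**
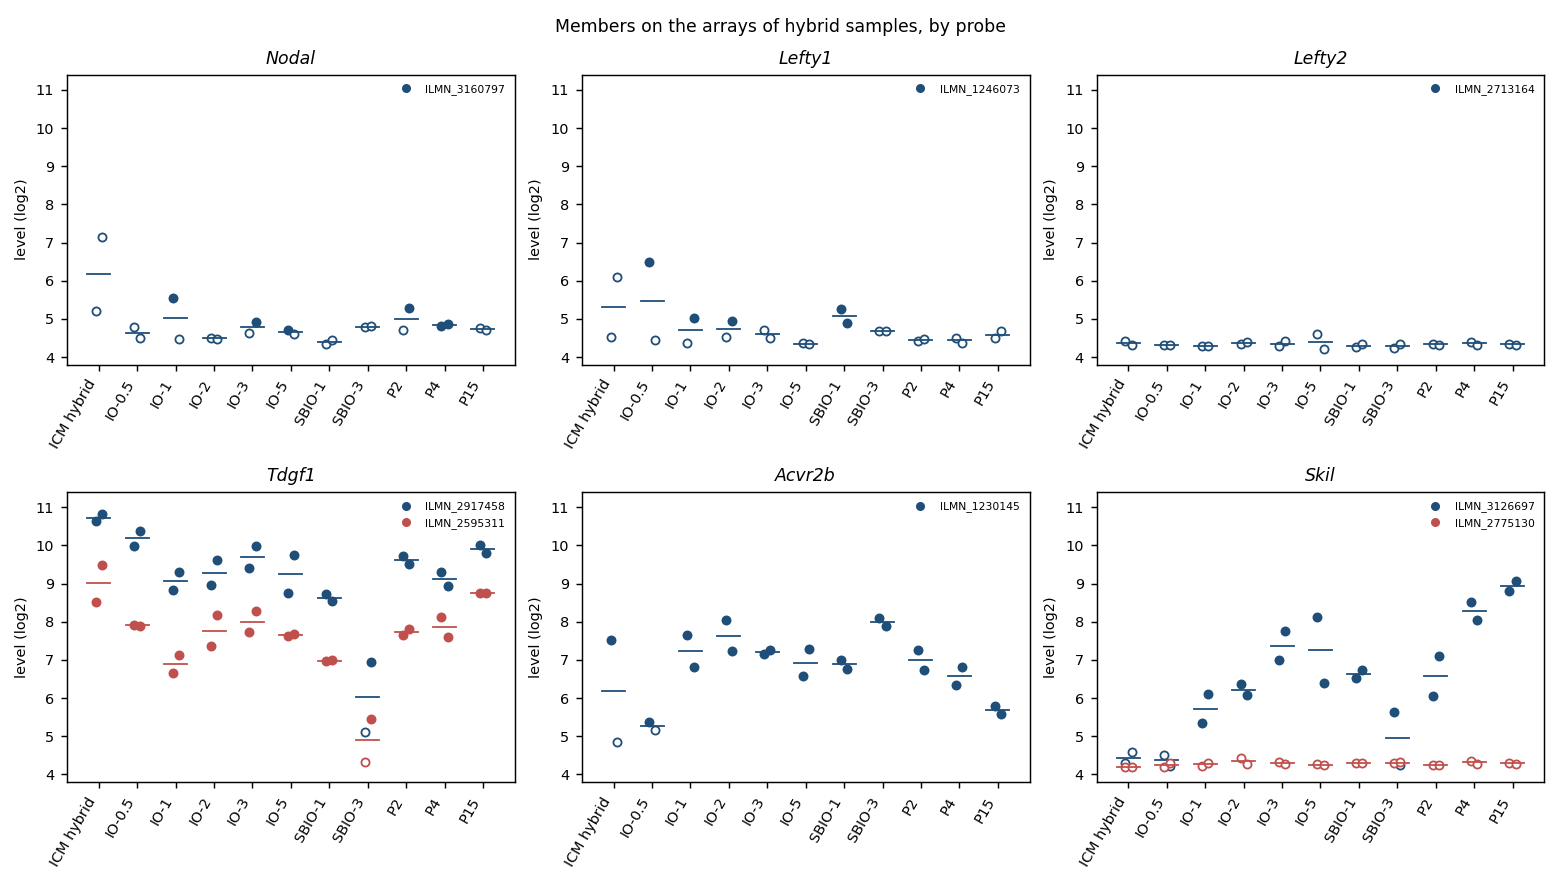
Log2 level of each probe of the 6 genes found on the second array type (y axis) on the 22 hybrid arrays, by group (x axis); 1 point per array, filled where detected and open where not, with a bar at the group mean. Both Tdgf1 probes are lowest in SBIO-3, and the brighter Skil probe is open in ICM and IO-0.5 and reaches 8.81 and 9.06 in P15.

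Of the secreted inhibitors Lefty1 and Lefty2, the latter was detected in the BALB/c samples of the fit in ICMs only. Lefty2 read 6.52, 5.63 and 6.65 on the ICM arrays, was detected on all 3, and was not detected on any of the other 14 BALB/c arrays, which lay between 4.23 and 4.59. BO-3 was at least 3.07-fold lower than ICM (log2 -1.91, SE 0.22, adjusted p = 1.75e-06) and ESCs at least 2.84-fold lower (log2 -1.99, SE 0.19, adjusted p = 1.62e-07). A probe was tested only if detected on at least 2 arrays, and Lefty2 met this through the ICM arrays alone. The direction of these changes was thus fixed beforehand, and their p values are no support for a fall. BO-3 replicate 1 did detect it, at 5.79, and with that array the change from ICM to BO-3 was -1.39 (adjusted p = 0.00249). Without background correction the changes to BO-3 and ESC were -0.62 and -0.66, short of 2-fold.

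Lefty1 was detected on the 3 BALB/c ICM arrays, at 5.83, 5.67 and 5.04, and on 6 later arrays, between 4.71 and 4.99. The ICM arrays lay above all others. The change was -0.78 to BO-3 (SE 0.23, adjusted p = 0.0106) and -0.93 to ESCs (SE 0.20, adjusted p = 0.00101), both short of 2-fold. Without ICM replicate 3 both passed it (log2 -1.04 and -1.18), and without ESC replicate 2 the second did (-1.12).

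On the hybrid arrays Lefty2 was not detected at all, between 4.21 and 4.60, and was not tested. Lefty1 was detected on 5 of the 22 arrays: IO-0.5 replicate 1 (6.49), IO-1 replicate 2 (5.03), IO-2 replicate 2 (4.96) and both SBIO-1 arrays (5.27 and 4.90). The hybrid ICM arrays, at 4.53 and 6.09, did not detect it, and no comparison of hybrid groups called it.

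The inhibitory Smad7 was measured in the first run only, where its probe was not detected on any of 18 arrays and read between 4.19 and 4.42. It was not tested, and a change in it was not detectable at this brightness.

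Skil, the co-repressor SnoN, was higher in every cultured BALB/c group than in the ICMs. Its brightest probe, ILMN_3126697, read 5.19, 6.21 and 5.02 in ICMs, 8.18 and 7.96 in BO-3, 8.53, 7.98 and 8.24 in BO-5, 7.90, 7.77 and 7.57 in BO-7, 7.81, 7.52 and 7.74 in BO-9 and 6.51, 7.47 and 6.89 in ESCs. No other array overlapped with the ICMs, and the ESCs lay below all outgrowths. Skil rose 6.06-fold from ICM to BO-3 (log2 2.60, SE 0.30, adjusted p = 2.36e-06), and ESCs remained 2.79-fold above the ICMs (log2 1.48, SE 0.27, adjusted p = 0.000185), which an offset of 50 in the background correction brought just under 2-fold (log2 1.00). ESCs were 0.73 below BO-9 (SE 0.27, adjusted p = 0.0434), short of 2-fold.

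Of the other Skil probes, ILMN_2443990 moved likewise, by 2.54 from ICM to BO-3 (SE 0.23, adjusted p = 1.57e-07) and 1.08 from ICM to ESC (adjusted p = 0.000301). The probe ILMN_2775130 was not detected on any array of either run. BO-3 replicate 1 read 7.45 with the brightest probe, close to the other BO-3 arrays, and the rise was 2.38 with it.

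In hybrid samples Skil was not detected in ICM or IO-0.5 and was highest at P15. In R2i it read 5.35 and 6.11 in IO-1, 6.37 and 6.07 in IO-2, 7.00 and 7.75 in IO-3 and 8.13 and 6.39 in IO-5. The ESCs read 6.06 and 7.09 at P2, 8.51 and 8.06 at P4 and 8.81 and 9.06 at P15. In SB medium it was 6.53 and 6.72 on day 1 and 5.65 and 4.25 on day 3, the last not detected. P15 and P4 stood above all other groups except for IO-5 replicate 1, and SBIO-3 lay below both IO-3 arrays.

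Skil rose at least 4.22-fold from IO-0.5 to IO-5 (log2 2.89, SE 0.53, adjusted p = 0.000841) and was at least 4.08-fold higher in P15 than in ICM (SE 0.53 on the log2 scale, adjusted p = 4.33e-06). The first call was lost without IO-5 replicate 1 (log2 1.97, adjusted p = 0.0199) and was 3.79 without IO-5 replicate 2, and both were lost with median scaling in place of quantile normalization (log2 1.77 and 1.41, adjusted p = 0.0449 and 0.0328). SBIO-1 was called against ICM (log2 2.19, SE 0.53, adjusted p = 0.003), yet its mean level lay below the mean of the dimmest detected probes of the ICM arrays. No fold is given, and with median scaling the change was -1.24 (adjusted p = 0.0627). The call was also lost without ICM replicate 1, SBIO-1 replicate 1 or SBIO-1 replicate 2 (log2 2.09, 2.27 and 2.07, adjusted p = 0.0157, 0.015 and 0.0245).

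On day 3 Skil was 5.37-fold higher in R2i than in SB medium (log2 2.43, 95% interval 1.30 to 3.55, adjusted p = 0.00422), and on day 1 the change was -0.90, with an interval from -2.03 to 0.23 (adjusted p = 0.392). The difference between days was 3.32 (SE 0.75, adjusted p = 0.00581). These calls rested on single arrays and on the scaling. On day 3 the value lay between 1.73 and 3.17 without 1 array in turn, with adjusted p from 0.00267 to 0.0595, and the call was lost without IO-3 replicate 1, IO-3 replicate 2 or SBIO-3 replicate 2. With median scaling it was 1.28 (adjusted p = 0.0687). For Tdgf1 the corresponding values were 2.77 to 4.60, with adjusted p from 4.7e-06 to 0.00171, and 2.77 with median scaling (adjusted p = 6.48e-05), so that this call held under both. Fitted on the 4 arrays compared alone, neither gene was called (adjusted p = 0.0235 for Tdgf1 and 0.0411 for Skil). The SBIO-3 arrays were dimmer than those of IO-3, with 33.5% and 36.7% of probes detected against 42.4% and 43.8%. The 95th percentile of their raw intensities was 261 and 673, against 1558 and 1860. On day 1 it was 1475 and 1515 in SBIO-1 and 362 and 1110 in IO-1. The part of this in the changes of Tdgf1 and Skil was not tested. The difference between days of Skil was 2.64 to 4.08 without 1 array in turn, with adjusted p up to 0.0344, and its call held only without IO-1 replicate 2 or SBIO-3 replicate 1.

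**Figure D3:**
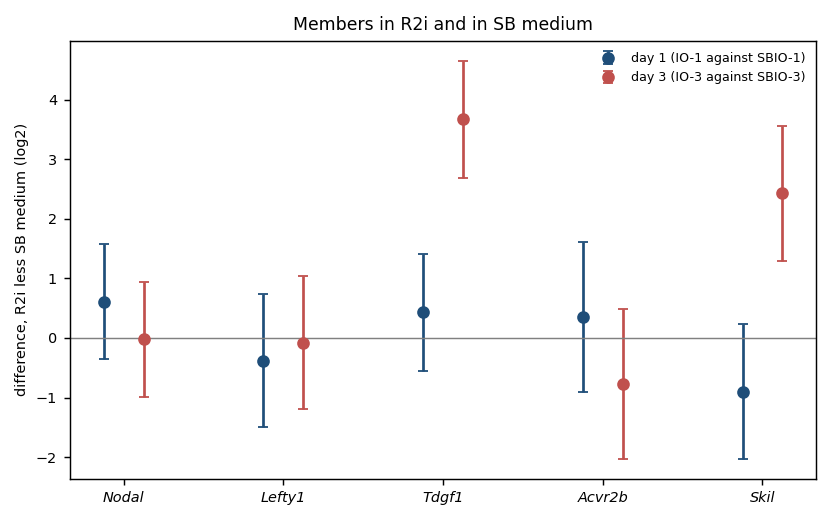
Change between the media (R2i less SB medium, log2, y axis) of the 5 genes tested on the hybrid arrays (x axis), on day 1 and on day 3; points are limma estimates from 2 arrays per group and bars are 95% intervals. On day 1 all intervals include 0, and on day 3 those of Tdgf1 (2.69 to 4.65) and Skil (1.30 to 3.55) lie above it.

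In the first run 6 genes were tested. From ICM to BO-3, 3 were called, Nodal and Skil higher and Lefty2 lower, where 20.5% of all 11450 genes tested were called. Between ICM and ESC, which share the ICM arrays with the former, 3 were called as well (Nodal, Skil and Lefty2), where 25.7% of all genes were. In both comparisons Lefty2 was open to testing through the ICM arrays alone. From BO-3 to BO-9 Nodal alone was called (5.42% of all genes), and between BO-9 and ESC none (13.7%), with Skil alone at an unadjusted p under 0.05. The median change of the 6 genes was 0.002, 0.09, -0.29 and -0.43 from ICM to BO-3, BO-3 to BO-9, BO-9 to ESC and ICM to ESC, and that of all genes between -0.02 and 0.02.

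In the second run 5 genes were tested. Between the media none was called on day 1 by limma, and none had an unadjusted p under 0.05, where 2.52% of all 10013 genes were called. On day 3, 2 were called (Tdgf1 and Skil), where 11.1% were. Between SBIO-1 and SBIO-3, 1 was called (Tdgf1), against 7.12%, and in the difference between days 2 (Tdgf1 and Skil), against 10.2%. Their median change was 0.36 on day 1, -0.02 on day 3, -0.40 between the SBIOs and 0.30 in the difference between days, against -0.01, 0.01, -0.03 and 0.01 over all genes.

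Along R2i, IO-0.5 against ICM called none of the 5 genes (23.8% of all genes), with Nodal alone at an unadjusted p under 0.05. IO-5 against IO-0.5 called Skil (14.8%), P15 against IO-5 none (12%), with Skil alone under an unadjusted p of 0.05, and P15 against ICM called Skil (48.1%). SBIO-1 against ICM called 3 (Nodal, Tdgf1 and Skil), where 35.5% of all genes were called. The comparisons against hybrid ICMs share those 2 arrays, and of the 3 calls only that of Tdgf1 came with a fold. With median scaling the median change of all genes against these ICMs was -1.91 for SBIO-1, -1.41 for IO-0.5 and -2.05 for P15, in place of 0.15, 0.04 and 0.04.

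Levels of epiblast markers and of markers of other lineages also differed between the media. The summed level of 8 epiblast markers was 5825 to 6483 in IO-3 and 910 to 959 in SBIO-3, against 7734 to 7972 in IO-1 and 4390 to 4664 in SBIO-1. That of 10 primitive endoderm markers was 18087 to 20209 in IO-3 and 39000 to 40275 in SBIO-3, and that of 9 trophectoderm markers 3214 to 3304 and 10803 to 10819. On day 1 the trophectoderm markers stood at 14504 to 16617 in IO-1 and 3065 to 3150 in SBIO-1. The primitive endoderm markers stood at 17283 to 18381 and 38176 to 39930 on that day. In the difference between days, 3 of 8 epiblast, 8 of 9 trophectoderm and 0 of 10 primitive endoderm markers were called, against 10.2% of all genes. Nanog was 12.5-fold higher in IO-3 than in SBIO-3 (adjusted p = 2.22e-07), and Sox2 was detected on neither SBIO-3 array, while Pou5f1 did not pass the test (log2 1.06, adjusted p = 0.101). Of the 8 epiblast markers 5 were called on day 3, all higher in IO-3, where 11.1% of all genes were called. Only 3 of the 10 primitive endoderm markers were called on day 3 and 2 on day 1 (2.52% of all genes), all lower in R2i. Of the 9 trophectoderm markers 6 were called on each day, higher in R2i on day 1 and lower on day 3. The part of these lineages in the changes of Tdgf1 and Skil was not tested.

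In the first run the summed level of 7 epiblast markers was 8275 to 9426 in BO-3 and 18365 to 22818 in BO-9, beside the ICM and ESC sums given above. From BO-3 to BO-9, 4 of the 7 were called higher, as Nodal was, where 5.42% of all genes were called. The sums of 9 primitive endoderm markers were 13739 to 15762 in ICM, 20441 to 23160 in BO-3 and 356 to 2937 in ESCs, and those of 9 trophectoderm markers 11248 to 13640, 13152 to 16541 and 625 to 1565. The BOs were plated as whole blastocysts, so trophectoderm was part of the sample. Nodal was as high in ESCs, which had little of either list, as in BO-9, where the sums were 12121 to 14393 and 5135 to 11177. The part of these lineages, epiblast included, in the changes of the members from ICM to BO-3 and from BO-3 to BO-9 was not tested.

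Of 48 further genes of the pathway, 27 were tested in the first run and 29 in the second. No probe of the ligands Inhba and Tgfb1 or the receptors Acvr1b, Acvr1c and Acvr2a passed the filter in either run. In the first run 9 were called from ICM to BO-3 (5 higher and 4 lower), 6 from BO-3 to BO-9 (4 and 2), 7 from BO-9 to ESC (2 and 5) and 10 from ICM to ESC (3 and 7). In the second run 2 were called between the media on day 1 (both higher in R2i), 5 on day 3 (2 and 3), 6 from SBIO-1 to SBIO-3 (5 and 1) and 4 in the difference between days (2 and 2). Along R2i, 4 were called from ICM to IO-0.5, 8 from IO-0.5 to IO-5, 3 from IO-5 to P15 and 10 from ICM to P15, and 10 from ICM to SBIO-1. As shares of the genes tested, beside those of all genes in parentheses, these were 33.3% (20.5%), 22.2% (5.42%), 25.9% (13.7%) and 37% (25.7%) in the first run. Between the media, the SBIOs and the days they were 6.9% (2.52%), 17.2% (11.1%), 20.7% (7.12%) and 13.8% (10.2%). From ICM to IO-0.5, IO-0.5 to IO-5, IO-5 to P15, ICM to P15 and ICM to SBIO-1 they were 13.8% (23.8%), 27.6% (14.8%), 10.3% (12%), 34.5% (48.1%) and 34.5% (35.5%), so that all of these but IO-0.5 to IO-5 lay below the share of all genes. The median change of these genes lay between -0.21 and 0.07 in the first run and between -0.22 and 0.27 in the second.

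Among the targets, Gsc, a homeobox gene that Nodal induces in the mouse gastrula, was high in the ICMs of both strains. In BALB/c samples it read 9.27, 9.61 and 9.63 in ICMs, 5.00 and 4.99 in BO-3, 6.46, 6.59 and 6.43 in BO-9 and 6.89, 6.02 and 6.41 in ESCs. It fell 22.8-fold to BO-3 (log2 -4.51, SE 0.20, adjusted p = 2.36e-11) and rose 2.83-fold from there to BO-9 (SE 0.20 on the log2 scale, adjusted p = 8.27e-05). In hybrid samples it read 10.54 and 10.32 in ICMs, 8.92 and 8.91 in IO-0.5, 6.94 and 6.39 in IO-1 and 5.30 and 5.13 in IO-2, so that each step lay below the one before. It was not detected on the SBIO-1 arrays, at 4.48 and 4.65, or on those of SBIO-3. SBIO-1 was at least 53.8-fold below the ICMs (adjusted p = 4.07e-09), and IO-1 was at least 3.96-fold above SBIO-1 (log2 2.10, SE 0.30, adjusted p = 0.000466). The last call was lost without IO-1 replicate 1 or SBIO-1 replicate 1 (adjusted p = 0.0128 and 0.0106).

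Ctgf (listed under Ccn2), a matricellular protein that TGF-β induces, also fell after the BALB/c ICMs, where it read 13.83, 13.43 and 13.45. It stood at 10.46 and 10.21 in BO-3, 9.42-fold lower (log2 -3.24, SE 0.21, adjusted p = 2.19e-09), at 12.05, 11.79 and 11.76 in BO-9 and at 10.44, 10.16 and 10.11 in ESCs. In hybrid samples the order was not the same. It read 9.16 and 9.67 in ICMs, 10.60 and 10.33 in IO-0.5, 8.39 and 8.44 in SBIO-1 and 11.06 and 11.83 in SBIO-3, the highest of all hybrid groups. From SBIO-1 to SBIO-3 it rose 8.20-fold (log2 3.03, SE 0.25, adjusted p = 1.06e-06), in medium that held SB on both days. The change of IO-3 against SBIO-3 was -1.17 on the log2 scale. Without 1 array in turn it lay between -1.55 and -0.78, the latter short of 2-fold. The difference between days was -1.57, and -1.95 to -1.18 without 1 array in turn.

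Gdf3, a ligand related to Nodal, and Tgif1, a homeobox co-repressor of Smads, were, like Tdgf1, lower in SBIO-3 than in IO-3. Gdf3 read 10.88 and 10.59 in IO-3 and 7.24 on both SBIO-3 arrays, where it was 11.3-fold lower (log2 of R2i less SB 3.49, SE 0.21, adjusted p = 3.96e-08). On day 1 it read 10.53 and 10.24 against 9.62 and 9.52, and the difference between days was 2.68 (SE 0.30, adjusted p = 2.8e-05). Tgif1 read 9.43 and 9.74 in IO-3 and 7.28 and 7.15 in SBIO-3, 5.17-fold apart (log2 2.37, SE 0.22, adjusted p = 3.06e-06), and its difference between days was 1.86 (SE 0.32, adjusted p = 0.000953). From SBIO-1 to SBIO-3 Gdf3 fell (log2 -2.32, SE 0.21, adjusted p = 2.57e-06), while Tgif1, at 8.13 and 8.11 in SBIO-1, did not pass the test (log2 -0.90, SE 0.22, adjusted p = 0.0127). All hybrid arrays of other groups lay above SBIO-3 for both genes. In BALB/c ESCs both were above the ICMs, Gdf3 by 2.93-fold (adjusted p = 1.11e-06) and Tgif1 by 2.28-fold (adjusted p = 2.38e-06).

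Eomes, a T-box partner of Smad2 and Smad3, crossed over between the media. It read 9.08 and 9.15 in IO-1 and 6.98 and 6.87 in SBIO-1, and 6.81 and 6.65 in IO-3 and 7.78 and 7.85 in SBIO-3. On day 1 it was 4.57-fold higher in R2i (log2 2.19, SE 0.28, adjusted p = 0.000156), and the difference between days was -3.28 (SE 0.39, adjusted p = 5.59e-05). Eomes also marks trophoblast in the mouse, and the trophectoderm sums above crossed in the same way. The part of trophoblast in the changes of Eomes was not tested. In BALB/c samples it was 8.41 to 8.51 in ICMs and was detected on 1 of 3 ESC arrays, 13.0-fold lower (log2 -3.70, SE 0.19, adjusted p = 4.17e-11).

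The receptor Tgfbr2 rose in the outgrowths of both runs and was low or not detected in ESCs, and the secreted activin antagonist Fst was highest in SBIO-3 among hybrid samples. Tgfbr2, the type II receptor for TGF-β, was not detected in BALB/c ICMs, read 6.65 on both BO-3 arrays (at least 3.42-fold higher, adjusted p = 1.67e-06) and 7.96, 7.85 and 7.96 in BO-9, and was detected on 1 of 3 ESC arrays. In hybrid samples it was not detected in ICM, IO-0.5 or IO-1, read 7.89 and 6.99 in IO-5 and was not detected in P15, at least 6.19-fold lower than IO-5 (adjusted p = 6.51e-06). SBIO-3 held the highest levels, 8.66 and 8.80, which were 3.19-fold above IO-3 (log2 -1.67 for R2i less SB, SE 0.29, adjusted p = 0.00086, and -1.59, adjusted p = 0.0118, without IO-3 replicate 1, which lost the call). Fst was detected on both SBIO-3 arrays, at 6.54 and 7.54, and both IO-3 arrays, at 6.26 and 5.44, and not in SBIO-1. It was at least 5.12-fold higher in SBIO-3 than in SBIO-1 (adjusted p = 1.57e-05), and 2.28-fold higher than in IO-3 (adjusted p = 0.00854, and 0.0118 with the replicate number as a block), a call lost without IO-3 replicate 2 (adjusted p = 0.14) or SBIO-3 replicate 2 (adjusted p = 0.0835).

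**Figure D4:**
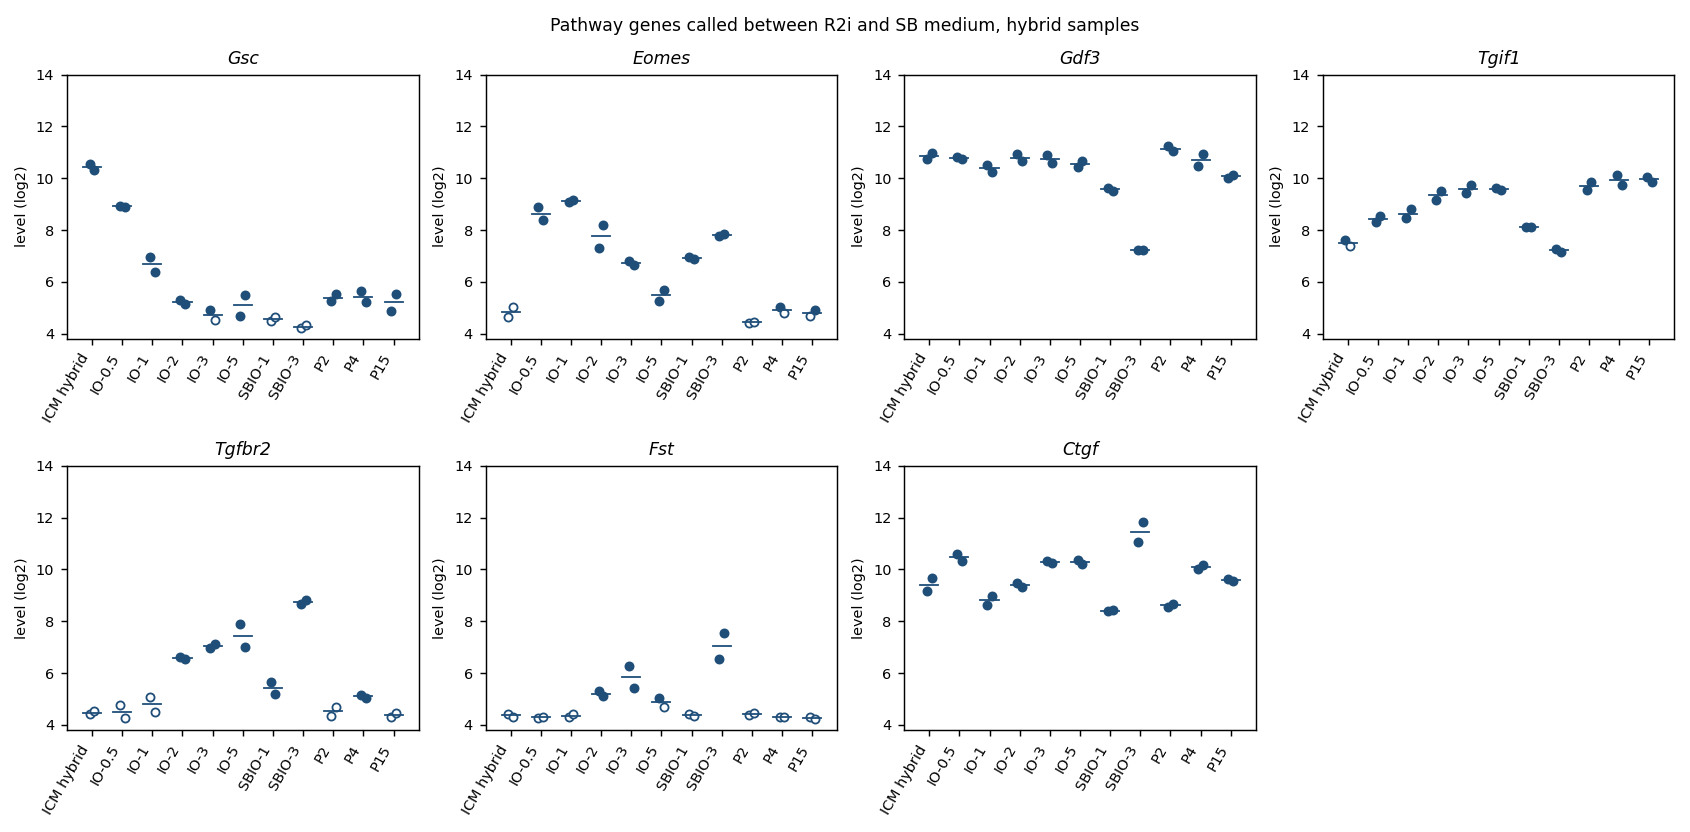
Log2 level (y axis) of the 7 further pathway genes called between R2i and SB medium or in the difference between days, on the 22 hybrid arrays by group (x axis); 1 point per array, filled where detected and open where not, with a bar at the group mean. Gsc falls from above 10 in ICMs and is open in both SBIO groups, Gdf3 and Tgif1 are lowest in SBIO-3, and Tgfbr2, Fst and Ctgf are highest there.

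Among the Smads, Smad2 was not called in any of the 4 BALB/c comparisons, and Smad3 was called only from BO-9 to ESC, from 8.86, 8.19 and 8.53 to 9.78, 9.56 and 9.46 (2.10-fold, adjusted p = 0.00204). Without BO-9 replicate 2 or ESC replicate 1 that change was under 2-fold, at 0.91 and 0.98. The inhibitory Smad6 was detected on both hybrid ICM arrays, at 6.45 and 8.08, and not at P15, at least 5.48-fold lower over both arrays (log2 -2.60, adjusted p = 7.82e-05). The dimmest detected probes of these ICM arrays lay at 6.41 and 7.41, near those levels. The part of their low detection in the size of the change was not tested. The size rested on the ICM arrays, with a change of -1.82 without ICM replicate 2 and -3.46 without ICM replicate 1, called in both. In the same comparison Smad4 rose (log2 1.72, SE 0.34, adjusted p = 0.000387), and from ICM to SBIO-1 by 1.25 (SE 0.34, adjusted p = 0.00589), a call lost without any 1 of the 4 arrays (log2 1.17 to 1.34, adjusted p = 0.0178 to 0.0422). Smad2, not detected in hybrid ICMs, was called at least 1.76-fold higher in P15 (adjusted p = 0.00388) and at least 2.36-fold higher in SBIO-1 (adjusted p = 0.00148). With median scaling these Smad2 changes were -0.13 and 0.15 on the log2 scale (adjusted p = 0.792 and 0.759), and without 1 array in turn the former was lost each time (log2 1.98 to 2.23) and the latter without ICM replicate 2, SBIO-1 replicate 1 or SBIO-1 replicate 2 (log2 2.41 to 2.54).

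The genes whose levels were most like those of a member over the 11 hybrid group means are given as a description. For Tdgf1 they were Csrnp2 (Pearson's r = 0.954), Psmg1 (0.917) and Nudt19 (0.909), and for Skil Rad1 (0.981), Nap1l1 (0.981) and Ncapg2 (0.980), of 8138 genes compared. For Acvr2b they were Niban2 (0.933), Rtl6 (0.910) and Glrx5 (0.906). Over the 6 BALB/c group means r was 0.880 for Csrnp2 with Tdgf1 and 0.901 for Rtl6 with Acvr2b, but -0.349 for Nudt19 with Tdgf1, 0.079 for Glrx5 with Acvr2b and -0.888 for Nap1l1 with Skil, and the others of these 3 members lay between 0.195 and 0.593. For Lefty1 (Nit1, 0.941, Pnliprp2, 0.928, and Popdc3, 0.918) and Nodal (Myo10, Il13 and Olfr965, all at 0.970 or above) most arrays were not detected. The groups share libraries and ICM arrays of low detection, and no p is given.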

How the data were processed

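Illumina BeadChips measured RNA amplified in 2 rounds, on Mouse WG-6 arrays (first run, 18 arrays) and MouseRef-8 arrays (second run, 24 arrays). The authors deposited, per array, an intensity for each probe as read out with GenomeStudio, and a detection p-value that sets it against the negative control probes. The authors also deposited log2 values, which followed the log2 of the intensities used here with Pearson's r of at least 0.9999975 and 0.9999649, shifted by constants of 4.127 to 4.129 and 4.145 to 4.153. Versions of GenomeStudio and limma are not given in the sources used here.

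Intensities were background-corrected, given an offset of 16 and quantile normalized with neqc of limma 3.58.1 in R 4.3.3, separately per run, for 17 and 22 arrays. Outside these fits were BO-3 replicate 1 and the 2 arrays that carried BALB/c ICMs in the second run. Probes with a detection p under 0.05 on at least 2 arrays were kept (19531 and 13923), and the brightest kept probe stood for a gene (11450 and 10013 genes). Of all probes, 34885 and 23978 had 1 symbol, 18 and 0 several, and 10378 and 1719 none. Groups were compared with lmFit and eBayes and Benjamini-Hochberg adjustment over all genes, with 11 residual degrees of freedom in each run. The study's methods call the arrays of a group biological replicates, and describe a pool for each replicate of ICMs and outgrowths. For ESCs no pool is described, and how independent their arrays were is not stated. The steps were tested on simulated data. Figures were drawn with matplotlib 3.10.9 under Python 3.11.15.

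The members and gene lists were chosen with earlier results of these data known. The text gives the 7 genes in every group, names further pathway genes from those called, and gives the 3 genes most like each member. Alternatives were another offset, no background correction, median scaling, no filter, array weights, the mean over probes, another threshold, a replicate block, the compared arrays alone, and leaving out or adding arrays.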

Additional observations from a re-analysis of the deposited data

Results flagged for a closer look

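Tdgf1 and Skil stood out because their change between the media differed between days by a test of the difference itself. For Tdgf1, R2i less SB medium on day 3 less the same on day 1 was 3.238 on the log2 scale (SE 0.6514, adjusted p = 0.00289 from limma). For Skil it was 3.324 (SE 0.7494, adjusted p = 0.00581), and 1.44 with median scaling (adjusted p = 0.136). Both IO-3 arrays lay above both SBIO-3 arrays for each gene.

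Lefty2 was listed because of a signal in arrays that no comparison above used, the 2 second-run arrays of BALB/c ICMs, where it was detected at 6.86 and 7.20. Against the hybrid ICMs of that run, at 4.42 and 4.32 and not detected, the change was 2.663 (SE 0.1777, adjusted p = 7.75e-08), a comparison chosen after the values were seen. Lefty2 was detected on no hybrid array and could be tested only through these BALB/c arrays, which fixed the direction beforehand. The dimmest detected probes of the hybrid ICM arrays lay near the BALB/c levels, so the bound is only at least 1.12-fold, and the fitted change is no measure of the size. In the same comparison 33.2% of all 10102 genes tested were called. Skil, which the hybrid ICMs did not detect either, was among them (log2 1.97, SE 0.52, adjusted p = 0.00517 from limma). Strain and the lower share of detected probes on the hybrid ICM arrays cannot be told apart here.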

How the results depend on the processing

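Of 160 results, 134 were changes of single genes and the others counts of calls, recomputed in 2767 alternatives, of which 2390 kept direction and side of the threshold or, for a count, stayed within 1.5 times, 239 lost the call, 32 gained it, 22 turned the direction and 84 moved a count by over 1.5 times. Unless a value above shows it, the cause was not tested.

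Members called moved as follows. The mean over probes gave 0 from BO-3 to BO-9. Without background correction 1 was called for ESC against ICM, IO-3 against SBIO-3, SBIO-1 against ICM, P15 against IO-5 and the difference between days. Median scaling gave 1 for IO-3 against SBIO-3, 3 for IO-0.5 against ICM, 0 for IO-5 against IO-0.5, 1 for P15 against IO-5 and 3 for P15 against ICM. Without the filter 1 was called for IO-3 against SBIO-3 and for the difference between days, as with an offset of 50 for the latter. Array weights gave 0 for SBIO-1 against ICM and 1 for P15 against IO-5. The other threshold gave 2 for SBIO-3 against SBIO-1, 1 for IO-0.5 against ICM, 1 for P15 against IO-5 and 2 for P15 against ICM. The compared arrays alone gave 0 for IO-3 against SBIO-3, SBIO-3 against SBIO-1, SBIO-1 against ICM, IO-5 against IO-0.5 and the difference between days. With the BALB/c ICM arrays 2 were called for P15 against ICM, and without both hybrid ICM arrays, an alternative chosen after seeing the data, 2 for IO-5 against IO-0.5.

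Without 1 array in turn, members called ranged from 3 to 5 for BO-3 against ICM, 1 to 2 for BO-9 against BO-3, 0 to 1 for ESC against BO-9, 3 to 4 for ESC against ICM, 1 to 2 for IO-3 against SBIO-3, 0 to 1 for SBIO-3 against SBIO-1, 0 to 3 for SBIO-1 against ICM, 0 to 1 for IO-0.5 against ICM, 0 to 2 for IO-5 against IO-0.5, 0 to 1 for P15 against IO-5, 1 to 2 for P15 against ICM and 0 to 2 for the difference between days. For IO-1 against SBIO-1 it was 0 throughout. In the same order, with IO-1 against SBIO-1 after ESC against ICM, the further pathway genes ranged from 8 to 9, 5 to 6, 5 to 9, 10 to 11, 1 to 2, 3 to 6, 5 to 6, 5 to 8, 3 to 5, 6 to 9, 2 to 4, 8 to 10 and 3 to 5.

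The counts of further pathway genes moved too. Without background correction they were 4 for BO-3 against ICM, 2 for BO-9 against BO-3, 4 for ESC against BO-9, 1 for IO-1 against SBIO-1, 2 for IO-0.5 against ICM and 1 for P15 against IO-5. With BO-3 replicate 1 the first was 5, and an offset of 50 gave 3 for BO-9 against BO-3. Median scaling gave 21 for SBIO-1, 15 for IO-0.5 and 25 for P15 against ICM, 5 for IO-5 against IO-0.5 and 18 for the difference between days. Array weights gave 5 for SBIO-1 and 1 for IO-0.5 against ICM. The other threshold gave 8 for IO-3 against SBIO-3 and 10 for the difference between days, which was 7 with the BALB/c ICM arrays and 7 with values below detection raised. The compared arrays alone gave 1 for each of the media comparisons, 0 for SBIO-3 against SBIO-1, 3 for SBIO-1 and 0 for IO-0.5 against ICM, and 2 for IO-5 against IO-0.5.

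Directions turned for Trim33 from ICM to BO-3 (-0.19 with the mean over probes, -0.044 with BO-3 replicate 1 and -0.52 on the compared arrays, from 1.41) and from ICM to ESC (-0.37 in both of the latter, from 1.73). Nodal turned between BO-9 and ESC (0.055 with the mean over probes). With median scaling SBIO-1 against ICM turned for Acvr2b (-1.34), Skil (-1.24), Eomes (-1.00) and Cdkn1a (-1.46, and -0.96 on the compared arrays), and P15 against ICM for Smad2 (-0.13) and Cdkn1a (-0.25). Without 1 array in turn they turned for Acvr2b in BO-9 against BO-3 (-1.01 to 0.16), SBIO-1 against ICM (-0.65 to 2.06), IO-0.5 against ICM (-2.29 to 0.43) and P15 against ICM (-1.86 to 0.85), for Skil in IO-0.5 against ICM (-0.21 to 0.073), and for Lefty1 in SBIO-1 (-1.02 to 0.57) and P15 against ICM (-1.53 to 0.065).

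Median scaling moved the median of all genes by -0.26 for BO-3 against ICM, 0.11 for BO-9 against BO-3, 0.60 and -0.94 between the media on days 1 and 3, 0.96 between the SBIOs, -2.07 for SBIO-1, -1.45 for IO-0.5 and -2.08 for P15 against ICM, -0.53 for IO-5 against IO-0.5, -0.23 for P15 against IO-5 and -1.51 for the difference between days. The share of calls that were higher went from 63.5% to 90.8% and from 56.1% to 21.8% between the media, from 48.2% to 88.5% between the SBIOs, from 51.5% to 4.5%, 48.8% to 2.83% and 50.3% to 14.4% against ICM, and from 57% to 8.41% in the difference between days. Calls over all genes went from 3553 to 6446 for SBIO-1, 2384 to 4919 for IO-0.5 against ICM, 4813 to 7342 for P15 against ICM, 1483 to 878 for IO-5 against IO-0.5 and 1019 to 4069 for the difference between days.

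The replicate numbers are not stated to pair arrays, and deviations of same-numbered arrays correlated between -0.303 and 0.393 over 40 pairs and between -0.482 and 0.485 over 110. A replicate block changed 3 calls, Gdf3 in BO-3 against ICM (-0.95) and BO-9 against BO-3 (0.98) and Fst in IO-3 against SBIO-3 (adjusted p = 0.0118), and moved no count by over 1.5 times.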
